A study of Neogale vison with 6 samples.

Results

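The Kruppel-like factors (KLFs) are transcription factors that bind GC-rich and CACCC-type DNA elements through zinc fingers at their carboxy-terminal end. They differ in the amino-terminal region, which recruits coactivators in some members and corepressors in others. Several of them control growth arrest, differentiation and barrier function in epithelia and endothelia, and most are encoded by short-lived mRNAs whose level can change within hours of a stimulus. KLF2 was described early on as lung Kruppel-like factor, and in endothelial cells it is known to respond to statins and to shear stress.

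The 10 KLFs examined here were chosen by gene symbol, namely KLF2, KLF3, KLF4, KLF5, KLF6, KLF7, KLF9, KLF10, KLF11 and KLF13. The table of gene counts holds 24526 genes, and 9 of the 10 symbols have a row in it. KLF13 has none, neither by symbol nor by gene description, and is not analysed here. All 9 KLFs with a row passed the filter on low counts, which left 12148 genes for testing.

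The RNA came from Mv1Lu, an established line derived from mink lung and used as a model of epithelial cells. Cholesterol depletion (CD) in 3 samples was a 16 h incubation with 50 μM lovastatin, an inhibitor of HMG-CoA reductase, together with 50 μM mevalonate, with lipoprotein-deficient serum (LPDS, 10%) as the serum of the medium. The 3 control samples were untreated Mv1Lu cells. The serum of the untreated cells is not given with these samples. Lovastatin, mevalonate and any difference in serum cannot be told apart in this comparison. Nothing in the labels says that the samples of a group came from separate cultures, so the p-values measure the spread between these samples, which may be technical.

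Libraries held 13473820 to 18633764 reads on genes. Reads on no gene made up 29.3% to 47.2% of a library, and this share did not separate the groups. SQLE (squalene epoxidase of the cholesterol pathway), a check of the treatment, rose 3.03-fold (log2 fold change 1.60, SE 0.13, edgeR FDR 7.75e-06). In CD replicate 3, 41.0% of the tested genes had their lowest CPM of the CD group, as had 5 of the 9 KLFs.

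The cell line was also checked against markers. KRT7 was the most abundant epithelial marker, with a mean of 7126 CPM (the count of a gene relative to the TMM-scaled total of its library) for the control and 1256 for CD, and KRT19 followed at 936 and 458. Of the 8 epithelial markers listed, 6 had a row, and their summed level was 7726 to 8377 CPM (control) and 1484 to 1952 CPM (CD). CLDN4, a tight junction claudin, went the other way, from a mean of 0.603 CPM to 7.03 CPM (log2 fold change 3.55, SE 0.29, edgeR FDR 9.61e-06). EPCAM and CDH1, which define many epithelia, were near 0, with 9 and 26 reads over all 6 libraries. All 7 endothelial markers had a row, and they summed to 209 to 224 CPM in the control and 76.4 to 126 CPM under CD. TEK held nearly all of this sum, at 215 and 102 CPM, and PECAM1, CDH5, KDR and ESAM had 11, 1, 4 and 2 reads in all. TIE1 was lower, at 3.04 and 1.35 CPM (edgeR FDR 0.0378), and VWF was higher, at 0.103 and 1.20 CPM (FDR 8.82e-04). The 7 fibroblast markers, led by COL1A2 at 212 and 164 CPM, summed to 310 to 387 CPM and to 183 to 232 CPM. The 5 leukocyte markers with a row, of 6 listed, summed to 5.20 to 5.84 CPM and to 17.6 to 23.3 CPM, mostly CD68, while PTPRC had 1 read and CD79A none. The part of these markers' shifts in the changes of the KLFs was not tested. In bulk RNA, fewer cells of a type and less RNA per cell cannot be told apart.

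CD raised the mRNA of most of the KLFs chosen. By edgeR's quasi-likelihood test, 7 of the 9 were higher under CD at a false discovery rate (FDR) below 0.05 over all tested genes, and 0 were lower. Of all tested genes, 24.8% were higher and 22.9% lower, so that 77.8% of the KLFs stood against a background of 24.8%. The KLFs were chosen with earlier results of these data known, so this contrast is a description and not a test. Of the 7 other SP/KLF genes tested, 1 was higher and 1 lower. None of the 9 chosen KLFs was lower at an unadjusted p below 0.05 either, or by DESeq2 or limma-voom. KLF15, not among the KLFs chosen, was lower (log2 fold change -1.81, edgeR FDR 6.03e-04). The median log2 fold change was 1.51 over the 9 KLFs and 0.057 over all tested genes. A rise of at least 2-fold was found for 5 KLFs, whereas 10.6% of the tested genes passed the FDR with such a rise. In 7 KLFs the lowest CD library exceeded the highest control library, a pattern seen in 29.5% of the tested genes.

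**Figure D1:**
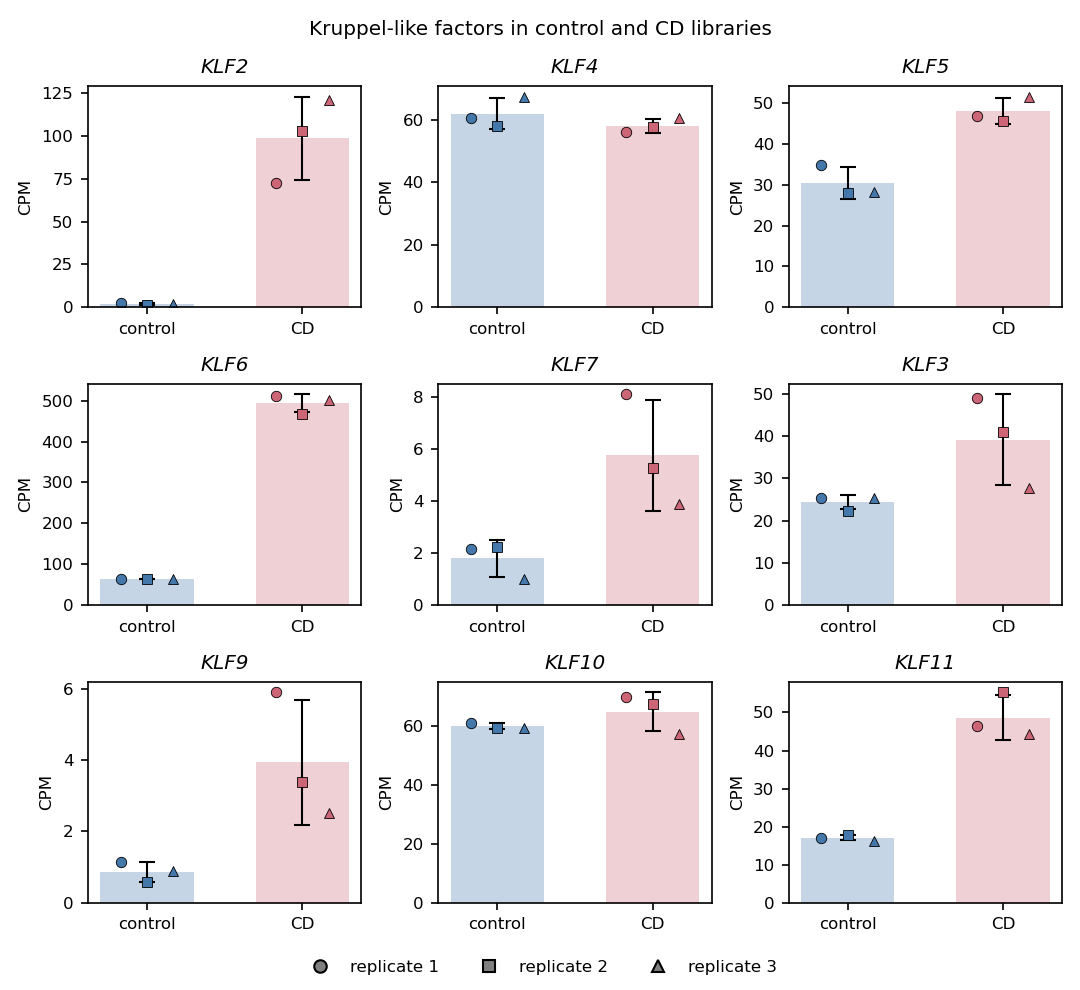
Level of each Kruppel-like factor in CPM (linear axes from 0) in the 3 control and 3 CD libraries. Points are libraries, with the replicate number as the point's shape, bars are means and whiskers are SD (n = 3). KLF2 and KLF6 show the widest gaps between groups, KLF4 and KLF10 overlap, and KLF3, KLF7, KLF9, KLF10 and KLF11 have their lowest CD point in replicate 3.

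KLF2, KLF4, KLF5, KLF6 and KLF7 are members whose amino-terminal region can activate transcription. Of these 5, 4 rose, beside 24.8% of all tested genes, and KLF4 was not called. The median log2 fold change was 1.71 over the group and 0.057 over all tested genes.

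KLF2 (ENSNVIG00000012328), known for keeping endothelial cells and T cells quiescent, showed the largest change of the family. Control libraries had 35, 17 and 39 KLF2 reads, and CD libraries had 1182, 1672 and 1676. In CPM these were 2.51, 1.23 and 2.15 against 72.6, 103 and 121. Every CD library thus held many times the KLF2 level of every control library, from a control level of few reads. The mean went from 1.96 ± 0.66 to 98.7 ± 24.3 CPM (SD, n = 3), a 49.8-fold rise (log2 fold change 5.64, SE 0.28, 95% interval 5.02 to 6.26, edgeR FDR 4.24e-07). By log2 fold change KLF2 ranked 18 of the 12148 tested genes, with 0.14% of the genes above it. Leaving out single libraries moved the log2 fold change between 5.40, without control replicate 2, and 5.83, without CD replicate 1.

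KLF6 (ENSNVIG00000009969), a widely expressed member that is induced by tissue injury and restrains growth, had the smallest standard error of the family. Its counts were 879, 886 and 1147 without treatment and 8314, 7640 and 6957 after CD. The CPM values were 63.0, 64.0 and 63.2 against 511, 469 and 501. Both groups were tight and far apart, with an SD on the log2 scale of 0.01 in the control and 0.07 under CD, while the medians over tested genes were 0.12 and 0.23. The mean rose from 63.4 ± 0.559 to 494 ± 22.1 CPM (SD, n = 3), or 7.78-fold (log2 fold change 2.96, SE 0.11, 95% interval 2.72 to 3.21, edgeR FDR 1.19e-07). KLF6 ranked 124 by log2 fold change and 14 by p-value. With single libraries left out its log2 fold change stayed between 2.91 and 2.97.

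KLF7 (ENSNVIG00000005091), a close relative of KLF6 known from neurite outgrowth, also rose but from few reads. Libraries of the control had 30, 31 and 18 reads and those of CD 132, 86 and 54. This gave 2.15, 2.24 and 0.992 CPM against 8.11, 5.28 and 3.89 CPM. The groups did not overlap, although CD replicate 1 had more than the other CD libraries and control replicate 3 less than the other controls. The log2 fold change was 1.71 (SE 0.36, 95% interval 0.91 to 2.52, edgeR FDR 0.00321), which is 3.28-fold. It ran from 1.39, without control replicate 3, to 1.90, without control replicate 2.

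KLF5 (ENSNVIG00000008631), which promotes proliferation in epithelia such as the intestinal crypt, rose by a smaller amount. Its counts were 486, 387 and 513 in the control and 761, 743 and 716 under CD. In CPM the control libraries had 34.8, 28.0 and 28.3 and the CD libraries 46.8, 45.6 and 51.6. The lowest CD library was above the highest control library. The rise was 1.58-fold (log2 fold change 0.66, SE 0.14, 95% interval 0.36 to 0.97, edgeR FDR 0.00293), and 19.6% of the tested genes had a higher log2 fold change. Without CD replicate 3 the log2 fold change was 0.57, and without control replicate 1 it was 0.77.

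KLF4 (ENSNVIG00000007021), a regulator of epithelial differentiation and a reprogramming factor, is the closest to KLF2 in the activating group by known function. Control counts were 848, 801 and 1225, next to 914, 941 and 841 after CD. The corresponding levels of 60.8, 57.9 and 67.5 CPM and of 56.2, 57.7 and 60.6 CPM overlapped. The log2 fold change was -0.09 (SE 0.12, edgeR FDR 0.533). Its 95% interval of -0.35 to 0.17 leaves room for a small change in either direction. Over the 13 alternative settings the log2 fold change lay between -0.16 and -0.03 and the FDR between 0.241 and 0.88.

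KLF3 (ENSNVIG00000007568) represses transcription by recruiting the corepressor CtBP and is the only KLF of that kind among the 10. Its counts were 355, 310 and 462 in the control and 797, 667 and 384 under CD. The levels were 25.4, 22.4 and 25.5 CPM against 49.0, 40.9 and 27.7 CPM. All CD libraries lay above the control libraries, but CD replicate 3 was close to them. The log2 fold change was 0.68 (SE 0.20, 95% interval 0.24 to 1.13, edgeR FDR 0.0171), or 1.60-fold. This call depended on single libraries. It was lost without control replicate 2 (log2 fold change 0.62, FDR 0.0752), without control replicate 3 (0.71, FDR 0.0551) and without CD replicate 2 (0.62, FDR 0.0595). The log2 fold change was 0.50 without CD replicate 1 (FDR 0.0409) and 0.84 without CD replicate 3 (FDR 1.62e-07).

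KLF9, KLF10, KLF11 and KLF13 repress transcription through the corepressor SIN3. Of the 3 with a row, 2 rose, beside 24.8% of all tested genes, and the median log2 fold change was 1.51.

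KLF11 (ENSNVIG00000015016), a gene induced by TGF-β, changed most clearly in this group. Its read counts of 239, 247 and 297 in untreated cells compare with 754, 902 and 615 after CD. Levels were 17.1, 17.9 and 16.4 CPM in the control and 46.3, 55.3 and 44.3 CPM under CD, with a wide gap between the groups. The mean went from 17.1 ± 0.744 to 48.7 ± 5.87 CPM (SD, n = 3), a 2.84-fold rise (log2 fold change 1.51, SE 0.14, 95% interval 1.20 to 1.82, edgeR FDR 2.02e-05). Leaving out a library gave log2 fold changes from 1.37 to 1.55.

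KLF9 (ENSNVIG00000010594), a target of glucocorticoid and thyroid hormone receptors, rose from very few reads. The control libraries had 16, 8 and 16 reads and the CD libraries 96, 55 and 35. As CPM these were 1.15, 0.578 and 0.882 against 5.90, 3.37 and 2.52. No CD library overlapped the control, and within CD the values spread more than 2-fold. The log2 fold change was 2.17 (SE 0.38, 95% interval 1.32 to 3.02, edgeR FDR 0.00111), which is 4.51-fold, and it ranged from 1.77, without CD replicate 1, to 2.40, without control replicate 1. KLF9 drops out of the test under a minimum of 50 counts in 3 libraries.

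KLF10 (ENSNVIG00000001151), the closest relative of KLF11 and likewise an early gene of TGF-β signaling, had 852, 819 and 1077 control reads and 1135, 1097 and 794 CD reads. The levels of 61.0, 59.2 and 59.3 CPM and of 69.8, 67.3 and 57.2 CPM overlapped, since CD replicate 3 was below all control libraries. The change did not pass the test (log2 fold change 0.11, SE 0.12, 95% interval -0.15 to 0.38, edgeR FDR 0.461). Over the alternatives it was 0.05 to 0.16, with an FDR of 0.228 to 0.794.

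**Figure D2:**
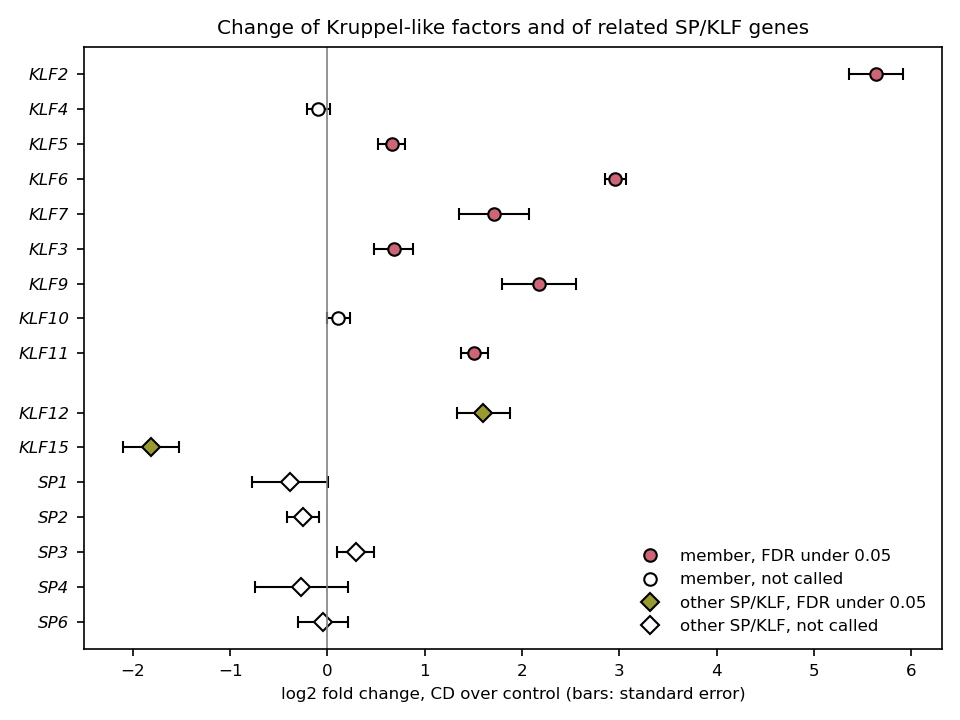
Log2 fold change of CD over control from edgeR, with its standard error, for the 9 Kruppel-like factors (circles) and the 7 other tested SP/KLF genes (diamonds). Filled symbols passed an FDR of 0.05. Among the circles 7 are filled and all lie to the right of 0. Among the diamonds KLF12 is filled at 1.60 and KLF15 at -1.81.

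CD replicate 3 stood below the other CD libraries for some members and not for others. On the log2 scale, its CPM relative to the mean of CD replicates 1 and 2 was -0.68 for KLF3, -0.68 for KLF7 and -0.72 for KLF9. For KLF2 it was 0.48. A difference below -0.5 was found in 17.4% of all tested genes. All 7 calls were kept when CD replicate 3 was left out, and 6 of the 7 were kept in every alternative in which the gene was tested, with KLF3 as the exception.

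**Figure D3:**
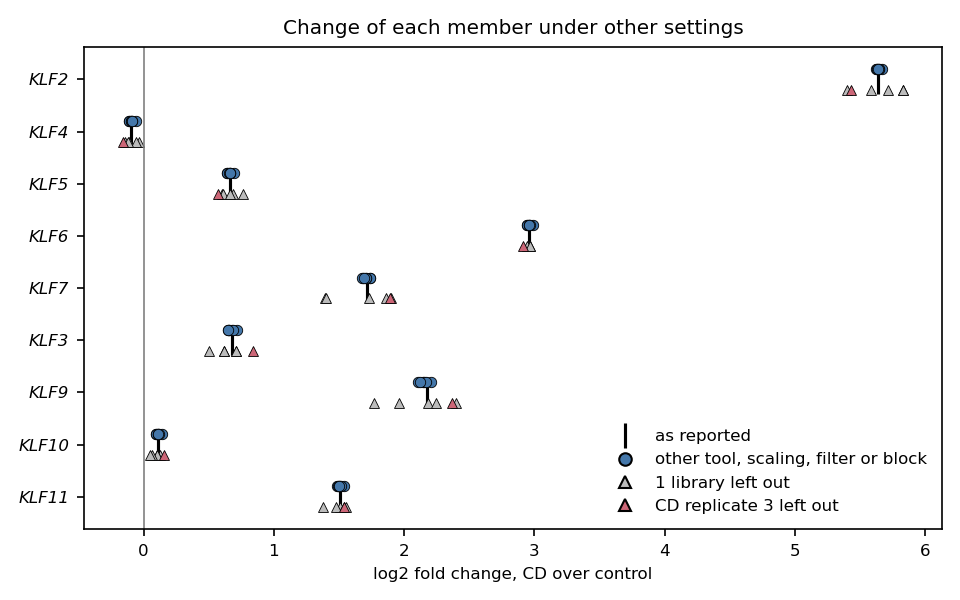
Log2 fold change of each Kruppel-like factor as reported (vertical mark), under another tool, scaling, filter or a replicate block (circles), and with 1 library left out (triangles, red for CD replicate 3). The circles lie close to the reported value for all 9 genes, and the triangles spread most for KLF7 and KLF9.

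The 9 KLFs together received 268, 253 and 264 CPM without and 866, 847 and 870 CPM with CD, 3.29 times as many on average. Most of this difference lay in a pair of genes. KLF6 took 24.2% ± 0.923 of the reads on KLFs in the control and 57.3% ± 1.86 under CD, and KLF2 took 0.745% ± 0.233 and 11.5% ± 2.80 (SD, n = 3). KLF4 went from 23.7% ± 1.61 to 6.76% ± 0.244 of the KLF reads and KLF10 from 22.9% ± 0.454 to 7.53% ± 0.825, while their own CPM did not pass the test. Without KLF6 and KLF2 the sum was 196 ± 7.45 CPM in the control and 268 ± 18.2 CPM under CD, a ratio of 1.37. These are shares of reads, which also depend on transcript length, and not shares of molecules.

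Ratios of counts within a library need no scaling between libraries, and were taken for 3 pairs of related members that were chosen with these results known. They are given as a description, without a test. KLF2 reads per KLF4 read were 0.0413, 0.0212 and 0.0318 in untreated cells and 1.29, 1.78 and 1.99 after CD, a 54.8-fold shift. For KLF11 over KLF10 the ratios were 0.281, 0.302 and 0.276 against 0.664, 0.822 and 0.775, a 2.63-fold shift. Neither of these ratios overlapped between the groups. KLF6 over KLF7 did overlap, at 29.3, 28.6 and 63.7 (control) and 63.0, 88.8 and 129 (CD), because control replicate 3 had few KLF7 reads. Over the settings the difference in log2 fold change was 5.55 to 5.94 for KLF2 and KLF4, 1.32 to 1.49 for KLF11 and KLF10 and 1.02 to 1.56 for KLF6 and KLF7.

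**Figure D4:**
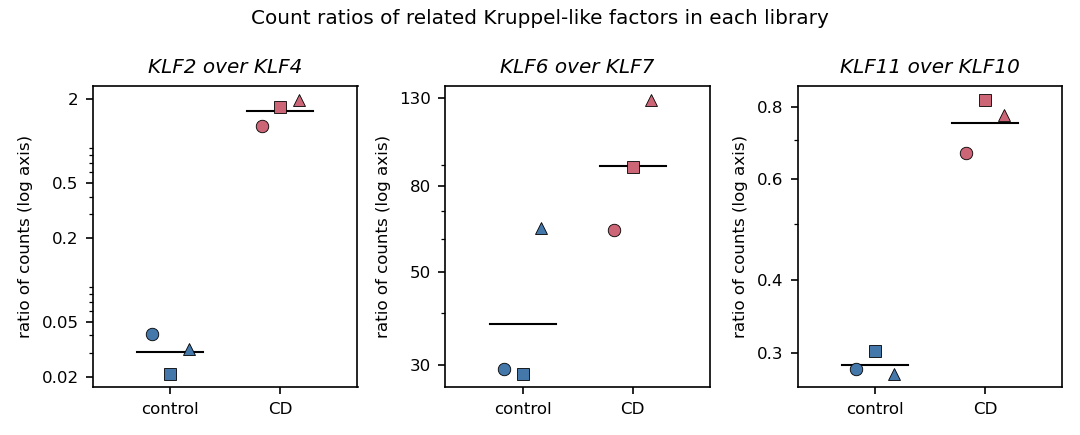
Ratio of the counts of 2 related Kruppel-like factors within each library (log axes), for KLF2 over KLF4, KLF6 over KLF7 and KLF11 over KLF10. Points are libraries, shaped by replicate number as circle, square and triangle for 1, 2 and 3, and lines are geometric means. The first and the last pair separate the groups, and KLF6 over KLF7 does not, with 1 control library at 63.7 and 1 CD library at 63.0.

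The SP proteins and the other KLFs share the zinc fingers and bind similar elements. Of 17 further SP and KLF genes listed, 14 had a row and 7 were tested. KLF12 was higher, KLF15 was lower, and 5 did not pass, with a median log2 fold change of -0.25. With 1 of 7 in each direction these counts were below the 24.8% and 22.9% of all tested genes. KLF12, a CtBP-dependent repressor like KLF3, had 11, 13 and 16 reads in the control and 55, 37 and 32 under CD, a 3.04-fold rise (log2 fold change 1.60, SE 0.27, edgeR FDR 9.62e-04). KLF15, known for metabolic control in liver and muscle, moved the other way. Its counts were 37, 30 and 34 against 12, 8 and 9, with non-overlapping groups and a log2 fold change of -1.81 (SE 0.29, edgeR FDR 6.03e-04).

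The SP genes did not pass the test. SP1, a general activator at GC boxes, had 264, 224 and 367 control reads and 374, 228 and 74 CD reads. CD replicate 3 was thus far below all others, and the log2 fold change was -0.38 (edgeR FDR 0.448). Without CD replicate 1 SP1 was called lower, at -0.91. SP3 had a log2 fold change of 0.29 (FDR 0.232) and was called higher, at 0.39, without CD replicate 3. These 2 exclusions raised the counts of SP/KLF genes called lower and higher to 2 each. SP2, SP4 and SP6 had log2 fold changes of -0.25, -0.27 and -0.04 (FDR 0.24, 0.672 and 0.90). Below the filter were KLF1, with 10 reads in the control and 3 under CD, and KLF8, with 1 and 9. KLF17 and SP5 had no read, SP7, SP8 and SP9 had 1 or 2 in all, and KLF14, KLF16 and KLF18 had no row.

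Cofactors of the KLFs were called higher about as often as genes in general. Of 13 listed, which include the CtBP and SIN3 corepressors, histone deacetylases and acetyltransferases, 11 were tested. By edgeR 3 were higher, in a table where 24.8% of all tested genes were. Lower by edgeR were 0, beside 22.9% of all tested genes, and 0 were lower at an unadjusted p below 0.05, by DESeq2 or by limma-voom. DESeq2 called 3 higher and limma-voom 2, without KAT2B. The median log2 fold change was 0.075, next to 0.057 over all genes. HDAC2 (log2 fold change 0.46, SE 0.12, FDR 0.012), CTBP2 (0.48, SE 0.14, FDR 0.0171) and the acetyltransferase KAT2B (0.79, SE 0.28, FDR 0.0417) were called, although the KAT2B groups overlapped. KAT2B lost its call without any 1 library but CD replicate 3, and was at 0.40 without CD replicate 1. CTBP2 lost it without any 1 control library or CD replicate 2, with values over the libraries left out of 0.37 to 0.53, and HDAC2 without control replicate 1 or 3, with values of 0.37 to 0.54. The count of cofactors called higher was 0 without control replicate 1 or control replicate 3, 1 without control replicate 2 or CD replicate 2, and 5 without CD replicate 3. CTBP1, the other CtBP gene listed, had 439, 420 and 467 CPM in the control and 405, 456 and 476 CPM under CD (log2 fold change 0.01, SE 0.11, FDR 0.938), and SIN3A was at 0.03 (FDR 0.884). HDAC1 and RBBP4 had no row.

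Several KLF proteins are turned over by ubiquitin ligases. Of 9 such enzymes and deubiquitinases listed, 8 were tested, and 5 were higher and 0 lower by edgeR (0 also at an unadjusted p below 0.05, by DESeq2 and by limma-voom), beside 24.8% higher and 22.9% lower among all tested genes. The median log2 fold change was 0.76. FBXW7, which targets KLF2 and KLF5, rose from 12.8, 14.6 and 11.5 CPM to 28.1, 21.1 and 33.5 CPM (log2 fold change 1.09, SE 0.19, edgeR FDR 0.00123). WWP1, a ligase for KLF2 and KLF5, went from 10.7, 11.9 and 8.54 CPM to 27.3, 15.1 and 16.9 CPM (0.93, SE 0.24, FDR 0.0103). ITCH (0.79, SE 0.18, FDR 0.00467), SMURF1 (0.74, SE 0.23, FDR 0.0212) and the deubiquitinase ATXN3 (0.91, SE 0.31, FDR 0.0352) were also called, with SMURF1 overlapping between groups. SMURF1 lost its call without any 1 library but CD replicate 3 (0.53 to 0.94 over the libraries left out), and WWP1 without control replicate 3 (0.64 to 1.06). ATXN3 lost its call without control replicate 2, control replicate 3 or CD replicate 1, and was at 0.58 without the last. The count was 3 without control replicate 2 or CD replicate 1, 2 without control replicate 3 and 2 at an FDR of 0.01. BTRC had no row.

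In endothelial cells the kinase ERK5 (MAPK7) and the MEF2 factors induce KLF2 and KLF4, and class IIa histone deacetylases restrain MEF2. Of the 11 genes listed for this module 10 were tested, and 4 were higher and 0 lower by edgeR (0 also at an unadjusted p below 0.05, by DESeq2 and by limma-voom), where all tested genes gave 24.8% and 22.9%. The median log2 fold change was 0.38. The deacetylase HDAC5 rose 5.29-fold, from 90.7, 76.8 and 84.7 CPM to 439, 480 and 414 CPM (log2 fold change 2.40, SE 0.12, edgeR FDR 4.71e-07). HDAC9, of the same class, had 8, 4 and 10 reads in the control and 47, 30 and 27 under CD (2.21, SE 0.34, FDR 5.13e-04). The other listed deacetylases of this class did not pass, with HDAC4 at -0.08 (FDR 0.773) and HDAC7 at 0.07 (FDR 0.708). MEF2C rose with little spread under CD, from 3.80, 2.39 and 3.31 CPM to 9.83, 9.33 and 9.80 CPM (1.60, SE 0.21, FDR 1.85e-04). MEF2A rose as well (0.99, SE 0.28, FDR 0.0147), but lost its call without control replicate 2 or control replicate 3, with log2 fold changes of 0.62 to 1.21 over the libraries left out. Neither kinase step was called, with MAPK7 at -0.06 (FDR 0.697) and its activator MAP2K5 at 0.29 (FDR 0.0929). MAP3K2 and MAP3K3 were not called either, at 0.07 (FDR 0.859) and 0.47 (FDR 0.103). Without CD replicate 3, MAP2K5 and MAP3K3 (0.67) were called higher, and the count of the module was 6. The count was 3 without control replicate 2 or control replicate 3.

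A further list held genes that KLFs are known to regulate in other cells. Of 22 listed, 14 were tested, and 8 were higher, 3 lower and 3 not called, with a median log2 fold change of 0.51. Among all tested genes 24.8% were higher and 22.9% lower, so that the count of lower targets was near the background. The chemokine CCL5, a target of KLF13 in T cells, had 38, 39 and 40 reads in the control and 498, 581 and 644 under CD, or 14.6-fold (log2 fold change 3.87, SE 0.22, edgeR FDR 8.66e-07). TXNIP, an inhibitor of thioredoxin, rose 9.28-fold from 26, 20 and 21 reads to 218, 282 and 145 (3.21, SE 0.27, FDR 1.12e-05). BIRC5, the apoptosis inhibitor survivin and a gene of dividing cells, fell from 304, 319 and 289 CPM to 45.2, 52.8 and 74.6 CPM (log2 fold change -2.40, SE 0.18, FDR 4.71e-06). The growth factor PDGFA fell too, with a log2 fold change of -1.16 (SE 0.13, FDR 7.44e-05).

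The other called targets are named after their values were seen. The cell cycle inhibitors CDKN1A (log2 fold change 0.44, edgeR FDR 0.00951) and CDKN1B (0.86, FDR 4.07e-04) were higher, as was the protease gene PLAU (2.0, FDR 0.00589), with 1, 3 and 6 reads in the control and 11, 14 and 16 under CD. The collagen COL1A1 was lower (-0.93, FDR 9.45e-04). TGFB1 was higher (0.58, FDR 0.0207), a call lost without control replicate 2, control replicate 3 or CD replicate 2, where values over the libraries left out were 0.50 to 0.69. The TGF-β receptor TGFBR1 and the inhibitor SMAD7 did not pass, at 0.05 and 0.10 (FDR 0.901 and 0.543).

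KLF2 in endothelial cells raises the anticoagulant THBD and the synthase NOS3 and lowers the adhesion molecules VCAM1 and SELE, a subset that was set apart after the values were seen. VCAM1 rose from 64, 31 and 46 reads to 301, 299 and 166 (log2 fold change 2.39, SE 0.29, edgeR FDR 1.23e-04). SELE had 2 reads in the 3 control libraries and 61 in the 3 CD libraries, a ratio of 30.2 with a 95% Clopper-Pearson interval of 8.0 to 255 that covers counting error only (FDR 2.85e-04). Both control reads were in control replicate 2, so the size of this ratio rests on that library. THBD overlapped, with 15.6, 16.3 and 21.2 CPM in the control and 24.7, 21.5 and 8.79 CPM under CD (0.05, FDR 0.911). NOS3, at 12 reads in the control and 14 under CD, was below the filter, as were EDN1, S1PR1, CDH1 and ENG.

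**Figure D5:**
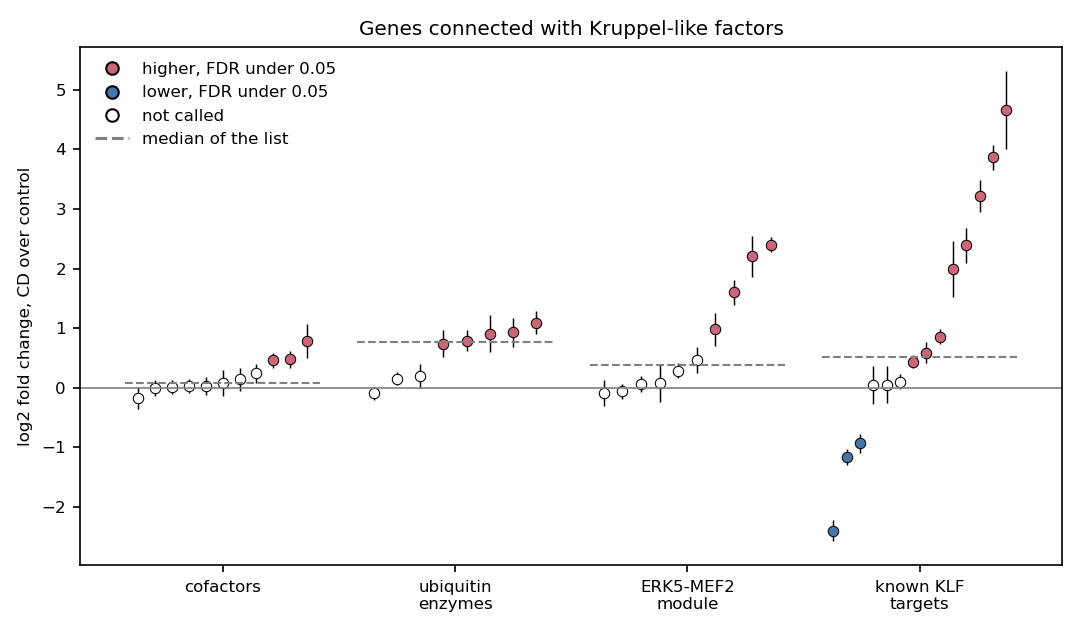
Log2 fold change of CD over control from edgeR, with its standard error as a vertical line, for the tested genes of 4 lists connected with Kruppel-like factors, ordered by value within each list. Dashed lines are list medians. The median is 0.075 for the cofactors and 0.76 for the ubiquitin enzymes, and only the known targets hold genes called lower.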

How the data were processed

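Poly(A) RNA libraries (Nextera XT) were sequenced on a NextSeq instrument. Per the labels, the authors used fastp 0.20.1, STAR 2.7.2a, R 4.0.3 and DESeq2 1.30.1, and the study's methods name the mink assembly NNQGG.v01. The program that counted reads and its use of strand are not given in the sources used here, so overlapping, antisense and near-identical genes are uncertain. Raw counts per gene, deposited by the authors as 1 table, were used. They also deposited normalized values for each library, in which the identifiers do not belong to the values beside them. These were not used. Rows of the count table that name no gene (29.3% to 47.2% of a library) were left out of library sizes and tests.

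The tests ran in R 4.3.3 with edgeR 4.0.16, using TMM scaling, the default filterByExpr settings (10 counts, 15 in total), glmQLFit with robust estimation and glmQLFTest on condition alone over all 6 libraries, and Benjamini-Hochberg adjustment over 12148 genes, called below 0.05. CPM uses TMM library sizes. The median SE of a log2 fold change was 0.18, which is the precision of 3 libraries per group at this depth. The fit was tested on simulated data.

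Alternatives were DESeq2 (1.42.0), limma-voom (limma 3.58.1), other scalings, filters and an FDR of 0.01, a replicate block and leaving out each library. The members and lists were chosen with earlier results of these data known. Named were all members, every other SP/KLF gene with a row, from each other list the genes of smallest adjusted p (up to 4) and those whose call or direction an alternative changes, SQLE as a check of the treatment, and the marker of highest CPM of each cell type. Named outside this rule, after their values were seen, were MAPK7, SMAD7, CDKN1A, CDKN1B, PLAU, COL1A1, VCAM1, SELE, the known targets below the filter, listed genes with no row and all other markers that the text names. MAP2K5, FZR1, PLAU, VHL and SQLE were found by the table's gene description. No coordinates or sequences are printed, since a genome of the authors' build was not used here. Some listed genes are not reported here.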

Additional observations from a re-analysis of the deposited data

How the results depend on the processing

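Over the 13 alternatives, 113 values of single KLFs kept their direction and side of the threshold and 3 (all KLF3) fell short of it. KLFs called higher numbered 6 with 1 of the libraries left out at the lowest, 6 at an FDR of 0.01 and 6 with the minimum of 50 counts, which leaves out KLF9, and 7 otherwise. The count of the chosen KLFs called lower was 0 throughout. DESeq2 size factors moved the median log2 fold change of all genes from 0.057 to 0.037 and upper quartile scaling moved it to 0.090.

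Replicate numbers did not pair the samples: same-numbered samples had deviations correlated at -0.0197, -0.396 and -0.197, and differently numbered samples at -0.0228 to 0.309. No fit modelled links between differently numbered samples. With a replicate block 7 KLFs, 2772 genes in all higher and 2636 lower were called. TGFB1 (0.59) was no longer called. All genes called higher numbered 2006 at an FDR of 0.01. With a minimum of 50 counts, SP/KLF genes called higher and called lower were 0 and 0, since KLF12 and KLF15 were not tested. At an FDR of 0.01, 0 cofactors and 2 ubiquitin enzymes were higher.

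With single libraries left out, all genes called higher ranged from 2216 to 3616 and lower from 2194 to 3606, other SP/KLF genes called higher from 1 to 2 and lower from 1 to 2, cofactors higher from 0 to 5, and ubiquitin enzymes higher from 2 to 5. Calls of 8 of the 25 called listed genes were lost in at least 1 alternative (CTBP2, HDAC2, KAT2B, WWP1, SMURF1, ATXN3, MEF2A and TGFB1). Calls were gained in at least 1 by SP1, SP3, SIN3B, EP300, MAP3K3 and MAP2K5.

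Log2 fold changes of 13 listed genes that were not called changed sign when a library was left out, and of these EP300 was called, at 0.29, without CD replicate 3. They ranged from -1.0 to 0.062 for SP4, -0.22 to 0.21 for SP6, -0.071 to 0.089 for CTBP1, -0.092 to 0.13 for SIN3A, -0.083 to 0.093 for HDAC3, -0.16 to 0.32 for SAP30, -0.13 to 0.084 for RBBP7, -0.12 to 0.29 for EP300, -0.32 to 0.22 for MAP3K2, -0.23 to 0.11 for HDAC4, -0.064 to 0.15 for HDAC7, -0.21 to 0.34 for THBD and -0.43 to 0.28 for TGFBR1. CTBP1 was at -0.0066 with DESeq2 size factors and -0.0066 by DESeq2. RBBP7 was at 0.028 with upper quartile scaling and 5.88e-05 with a minimum of 50 counts. By limma-voom THBD was at -0.060 and TGFBR1 at -0.060, and with the replicate block at -0.044 and -0.057. The cause of these sign changes was not tested. At 8 to 31 reads per control library, KLF7 and KLF9 have the widest errors of the KLFs.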
